A study of Mus musculus with 21 samples.

Results

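The Mex3 family of RNA-binding proteins was followed through sorted cells of the mouse main olfactory epithelium. The family was taken by gene symbol as Mex3a, Mex3b, Mex3c and Mex3d, and all 4 genes were found among the 23587 genes used of one deposited TPM table and among the 22918 used of the other. All 4 passed the filter on low values in every comparison. TPM is the number of reads per gene scaled for gene length and for the library, so levels can be compared between these genes. MEX3 proteins carry paired KH domains, which bind RNA, and a RING finger, which transfers ubiquitin, so they couple the choice of a transcript to its decay or to the turnover of a protein. The founding member was described in the early nematode embryo, and in vertebrates Mex3a is best known from stem and progenitor cells. The olfactory epithelium renews its sensory neurons throughout life from basal stem cells, through dividing progenitors and immature neurons to mature neurons.

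Every mouse carried a tetracycline-responsive transgene that joins mCherry to HyperTRIBE, an RNA-editing domain that marks bound transcripts. In HT mice the transgene was tetO-HyperTRIBE_mCherry, and in MexHT mice it was tetO-Mex3a_HyperTRIBE_mCherry, which adds Mex3a. With the 2 drivers gg8tTA and OMPtTA, which act in immature and in mature olfactory sensory neurons (OSN), the sorted OSN gave 6 MexHT and 3 HT libraries and the mCherry-negative cells gave 5 MexHT and 3 HT libraries. With gg8tTA alone, MexHT mice gave 2 libraries of sorted immature OSN and 2 of mCherry-negative cells, in a separately scaled table. No HT mouse with gg8tTA alone was analysed here, ages are not given in the sources used here, and the labels tie each negative library to the OSN library of the same mouse. Driver and separate scaling changed together, so the driver cannot be told apart from any batch of the libraries.

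The whole read numbers recovered from the TPM steps summed to 7529648 to 12600530 per library in the first table and to 10421511 to 15358109 in the second. Mature OSN markers, 14 genes led by Omp, summed to 10849 to 16230 TPM in HT OSN, to 2469 to 7702 TPM in MexHT OSN and to 361 and 891 TPM in gg8 MexHT OSN. The negative cells still held them, at 675 to 8460 TPM in MexHT mice, 6454 to 13171 TPM in HT mice and 8973 and 15620 TPM in gg8 MexHT mice, so this gate is not free of neurons. Immune markers summed to 413 to 740 TPM in MexHT OSN and to 1472 to 6161 TPM in HT OSN, and all 10 of them were lower in MexHT OSN by limma. Every listed marker was above 0 in at least 1 library of every group. MexHT OSN libraries 5 and 6 stood apart from the other 4, with progenitor markers (15 genes, among them Neurog1 and Mki67) at 1227 and 662 TPM against 362 to 435 TPM. In bulk samples, fewer cells of a type and less RNA per cell cannot be told apart.

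The 4 genes are separate loci with 2 exons each. In GENCODE M21 on GRCm38 (mm10), Mex3a (ENSMUSG00000074480) lies on chromosome 3 from 88532395 to 88541396, plus strand, and Mex3b (ENSMUSG00000057706) on chromosome 7 from 82867333 to 82871515, plus strand. Mex3d (ENSMUSG00000048696) lies on chromosome 10 from 80380355 to 80387659, minus strand. Because Mex3a is also supplied by the transgene, shared sequence bears on whether its reads could be counted for another member. The longest identical run between transcripts was 21 bases for Mex3a and Mex3b, 19 for Mex3a and Mex3c, and 14 for Mex3a and Mex3d. Among the other pairs it was 26 bases for Mex3b and Mex3c, 29 for Mex3b and Mex3d, and 26 for Mex3c and Mex3d.

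The most alike 75-base windows of 3 pairs are shown to let the degree of divergence be seen, read from the genome on the strand of each gene, all within coding exons. Capitals mark the bases at which the members of a pair differ. Mex3a (chr3:88537020-88537094, exon 2) and Mex3b (chr7:82870048-82870122, exon 2) differed at 10 of the 75 bases:
Mex3a: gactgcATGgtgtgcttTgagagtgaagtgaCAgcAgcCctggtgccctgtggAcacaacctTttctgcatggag
Mex3b: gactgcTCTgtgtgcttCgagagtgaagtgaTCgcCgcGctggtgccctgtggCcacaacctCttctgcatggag
Mex3a (chr3:88536075-88536149, exon 2) and Mex3d (chr10:80382545-80382619, exon 2) differed at 11:
Mex3a: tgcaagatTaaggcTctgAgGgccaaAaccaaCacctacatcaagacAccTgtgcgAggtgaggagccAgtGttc
Mex3d: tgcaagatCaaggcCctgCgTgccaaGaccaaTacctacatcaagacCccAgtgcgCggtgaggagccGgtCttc
Mex3b (chr7:82867848-82867922, exon 1) and Mex3d (chr10:80386666-80386740, exon 1) also differed at 11:
Mex3b: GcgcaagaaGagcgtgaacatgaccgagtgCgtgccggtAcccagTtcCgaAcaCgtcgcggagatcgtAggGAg
Mex3d: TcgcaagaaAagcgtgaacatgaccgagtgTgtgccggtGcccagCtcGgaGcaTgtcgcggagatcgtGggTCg
The best window of Mex3a and Mex3c differed at 15 bases. The length of the sequenced reads and the treatment of reads with several matches are not given in the sources used here, so a share of miscounted reads was not tested. Within coding exon 2 of Mex3a, the annotation also places the microRNA gene Mir1905 on the opposite strand (chromosome 3, 88536301 to 88536382).

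The sequence before the start site is shown for the members that the promoter table from RefSeq (GRCm38.p6) holds, Mex3a and Mex3b. In MexHT mice the Mex3a level also includes reads of the tetracycline-responsive transgene. A link of these sequences to the levels was not tested. The 250 bases upstream of the RefSeq start of Mex3a (chr3:88531696-88531945) and of Mex3b (chr7:82867083-82867332) read, with matches to a GC box or a CCAAT box in capitals:
Mex3a: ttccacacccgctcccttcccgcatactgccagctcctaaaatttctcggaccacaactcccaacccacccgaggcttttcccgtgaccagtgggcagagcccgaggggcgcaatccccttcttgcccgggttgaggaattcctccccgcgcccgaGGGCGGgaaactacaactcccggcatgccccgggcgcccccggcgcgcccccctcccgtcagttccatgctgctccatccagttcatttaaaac
Mex3b: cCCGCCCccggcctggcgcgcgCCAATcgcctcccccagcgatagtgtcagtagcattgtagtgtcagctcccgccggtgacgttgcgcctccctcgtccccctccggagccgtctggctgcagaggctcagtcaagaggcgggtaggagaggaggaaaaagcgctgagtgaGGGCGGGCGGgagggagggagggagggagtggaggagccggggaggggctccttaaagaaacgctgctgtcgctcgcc
Their GC content was 64.0% and 68.4%, against a median of 52.4% over 32851 promoter windows of the same length. The GC box (GGGCGG or CCGCCC) matched 1 time in Mex3a and 3 times in Mex3b, counting overlapping matches, and was present in 32.7% of all windows. The CCAAT box (CCAAT or ATTGG) matched 1 time in Mex3b and 0 times in Mex3a, against 33.8% of windows with a match. Neither window held the E-box CANNTG, present in 66.2% of windows, or TATAAA or its reverse complement, present in 12.4%. These are matches of letters on both strands, and binding was not measured.

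Mex3a, the member with known roles in stem cells and the one carried by the MexHT transgene, served first as the check of the labels. In MexHT OSN its level ranged from 328 to 1271 TPM with a median of 348 TPM over the 6 libraries. In the 3 HT OSN libraries it was 24.0, 32.1 and 61.5 TPM, so every MexHT OSN library lay above every HT OSN library. The tables do not separate reads of the transgene from those of the endogenous gene. In the negative cells Mex3a was 57.8, 106, 144, 93.7 and 207 TPM in MexHT mice 1 to 5 and 29.3, 58.4 and 74.3 TPM in HT mice 1 to 3, and these groups overlap. In the gg8 mice it was 460 and 1632 TPM in the OSN and 211 and 101 TPM in the negative cells. Mir1905 moved with it in the first table, at 3050 to 9989 TPM in MexHT OSN and 83.3 to 271 TPM in HT OSN, but reached only 44.8 and 115 TPM in gg8 MexHT OSN. Its part in the Mex3a count was not tested.

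Mex3b, known as a binder of double-stranded RNA that helps the receptor Tlr3, had the lowest levels of the family in most libraries. It ranged from 43.1 to 188 TPM in MexHT OSN, with a median of 53.6 TPM, and was 12.8, 15.1 and 20.2 TPM in HT OSN. The groups do not overlap, and the highest MexHT OSN library was again library 5. The negative cells had 17.7, 28.6, 40.4, 21.8 and 48.7 TPM in MexHT mice and 14.0, 19.8 and 17.5 TPM in HT mice. In gg8 mice the OSN had 112 and 389 TPM and the negative cells 73.6 and 43.2 TPM, the second OSN library being the highest of all libraries for this gene within its table.

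Mex3c, an E3 ligase known for acting on the RNA sensor encoded by Ddx58 and on transcripts of class I histocompatibility genes, was the steadiest member. Its locus (ENSMUSG00000037253) lies on chromosome 18 from 73573044 to 73592575, plus strand. It ranged from 103 to 188 TPM in MexHT OSN, with a median of 115 TPM, and was 124, 133 and 89.0 TPM in HT OSN, inside that range except for the lowest library. The negative cells had 95.5, 109, 103, 98.8 and 95.4 TPM in MexHT mice and 104, 130.4 and 76.9 TPM in HT mice. In gg8 mice the OSN had 129 and 246 TPM and the negative cells 121 and 134 TPM. Across all groups of the first table its highest library held 2.45 times its lowest, against 53.0 times for Mex3a, 14.7 times for Mex3b and 5.09 times for Mex3d.

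Mex3d, first described as a binder of AU-rich elements in the Bcl2 transcript, ranged from 45.6 to 132 TPM in MexHT OSN, with a median of 57.4 TPM. It was 26.5, 25.9 and 30.9 TPM in HT OSN, below every MexHT OSN library. The negative cells had 33.5, 36.3, 56.2, 36.2 and 59.4 TPM in MexHT mice and 26.4, 35.4 and 30.7 TPM in HT mice. In gg8 mice the OSN had 84.4 and 233 TPM and the negative cells 75.4 and 55.4 TPM. As for Mex3b, the libraries highest in Mex3a were the highest in Mex3d among the OSN.

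**Figure D1:**
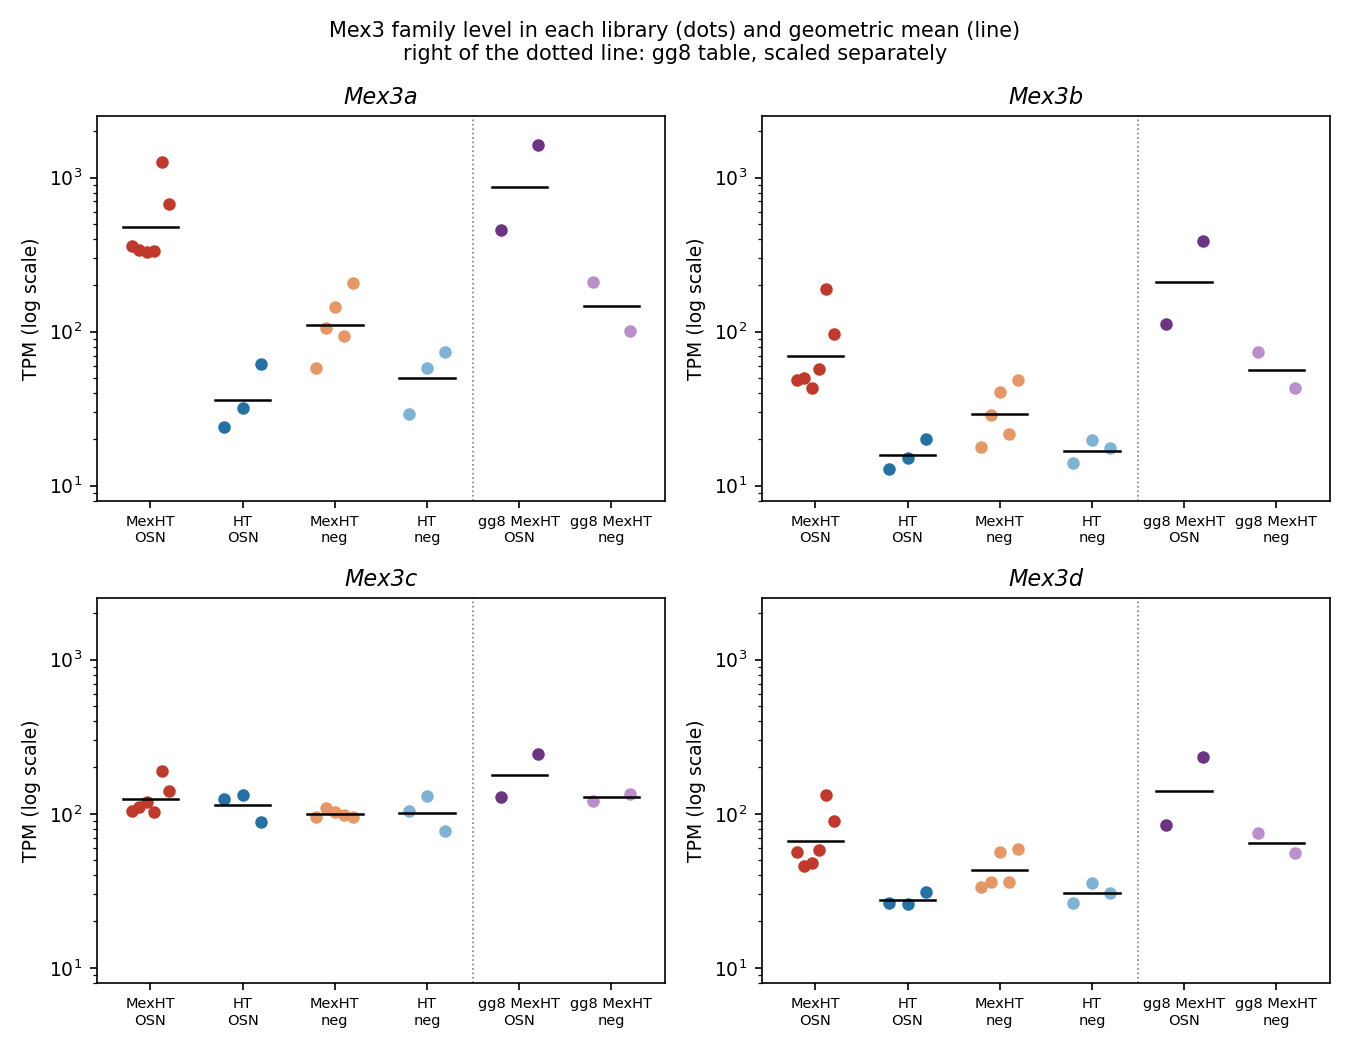
TPM of each Mex3 gene on a log axis, 1 dot per library and a line at the geometric mean of each group (neg, mCherry-negative cells). The 6 MexHT OSN libraries lie above the 3 HT OSN libraries for Mex3a, Mex3b and Mex3d, while the Mex3c groups overlap.

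The balance of the family differed between the constructs. A larger share of Mex3a in MexHT OSN follows from the Mex3a transgene, whose reads enter the summed TPM. It lowers the shares of the other members, so shares alone do not show a change in them. Mean Mex3c was 115 TPM in HT OSN and 128 TPM in MexHT OSN. Mex3c made up 58.3% ± 12.3 (SD, n = 3) of the summed Mex3 TPM in HT OSN and 17.3% ± 4.28 (SD, n = 6) in MexHT OSN. Mex3a made up 19.6% ± 9.54 (SD, n = 3) and 64.2% ± 4.34 (SD, n = 6), and the ranges of the groups do not overlap for either gene. Mex3b held 8.06% ± 1.72 (SD, n = 3) in HT OSN and 9.39% ± 1.02 (SD, n = 6) in MexHT OSN, a difference within the spread, although its TPM differed. The family total was 198 ± 9.73 TPM (SD, n = 3) in HT OSN, 831 ± 499 TPM (SD, n = 6) in MexHT OSN, 206 ± 35.5 TPM (SD, n = 3) in HT negative cells and 298 ± 80.6 TPM (SD, n = 5) in MexHT negative cells. In gg8 MexHT OSN Mex3a held 58.6% and 65.3%, inside or just below the 60.4% to 71.4% of MexHT OSN with both drivers. Mex3b held 14.3% and 15.6% there, above the 8.01% to 10.6% of MexHT OSN with both drivers, but these shares come from separately scaled tables and were not tested.

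**Figure D2:**
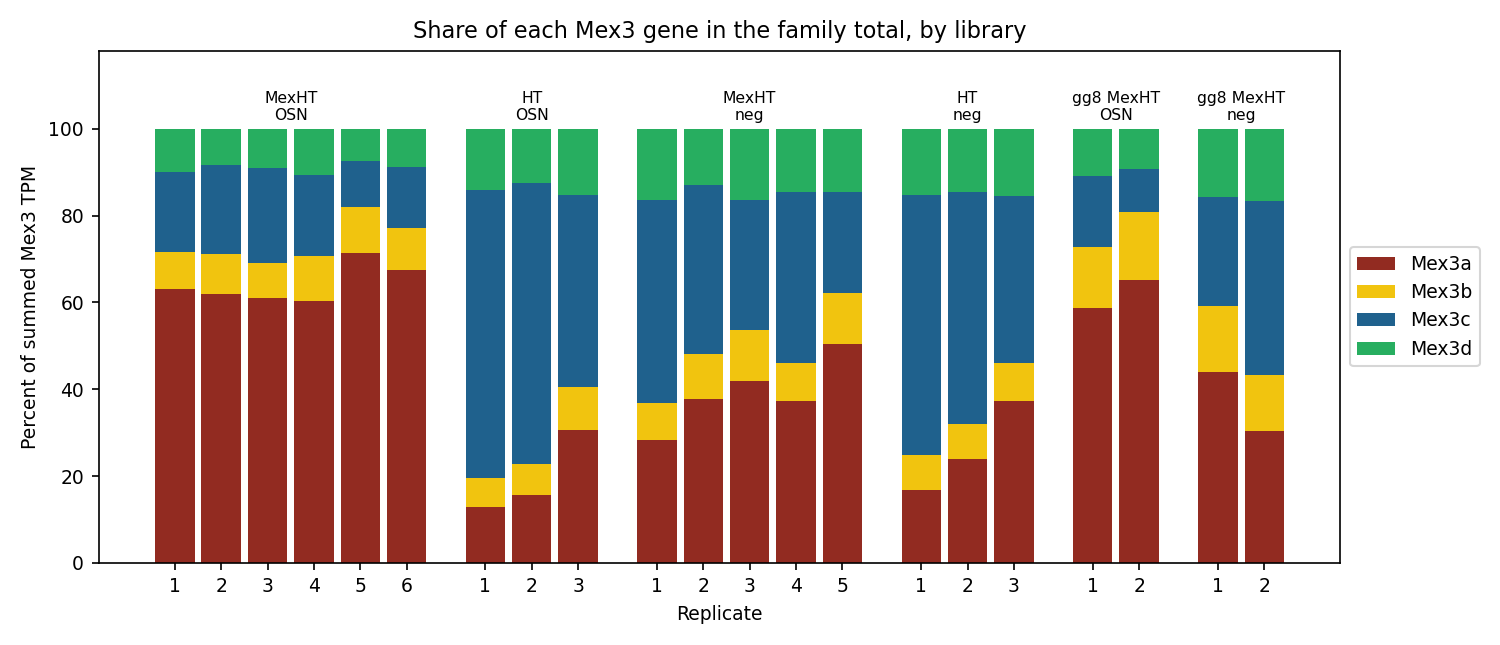
Percent of the summed Mex3 TPM held by each gene, 1 bar per library, grouped by construct, driver and fraction (neg, mCherry-negative cells). Mex3c is the largest part in the 3 HT OSN libraries and Mex3a in the 6 MexHT OSN libraries.

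The comparison of MexHT with HT OSN asked how the levels differ when Mex3a is part of the transgene. By limma on log2(TPM + 1) with Benjamini-Hochberg adjustment, 36.8% of the 16067 genes tested passed an adjusted p of 0.05, and 19.9% passed it in the upward direction. Of the 4 members, 3 rose. Mex3a rose by 3.68 ± 0.45 (log2, SE), or 12.8-fold (adjusted p = 0.000406). Mex3b rose by 2.07 ± 0.42, or 4.19-fold (adjusted p = 0.00413), and Mex3d by 1.23 ± 0.30, or 2.35-fold (adjusted p = 0.0102). Mex3c differed by 0.13, with a 95% confidence interval from -0.32 to 0.58 (adjusted p = 0.636), and fell on the other side of 0 without libraries 5 and 6 (-0.06). Among all genes tested, 38.4% had groups that do not overlap and 21.5% did so with MexHT higher, as Mex3a, Mex3b and Mex3d did. A larger log2 difference than that of Mex3b was found for 0.473% of the genes, and a larger one than that of Mex3d for 2.93%. Without MexHT OSN libraries 5 and 6 the differences were 3.19 for Mex3a, 1.59 for Mex3b and 0.88 for Mex3d, all still called.

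Xist, the transcript of the inactive X chromosome in females, was 0.126, 60.3 and 0.140 TPM in HT OSN libraries 1 to 3 and 58.4 to 139.8 TPM in MexHT OSN, so the sexes were not balanced over the constructs. Among the HT OSN libraries, only library 2 lay within the Xist range of MexHT OSN. With the Xist level as a covariate, limma left 329 genes called, and none of the members among them. That fit compares the constructs at like Xist levels through this 1 HT library. The values stayed near those above, at 3.70 for Mex3a (adjusted p = 0.0534), 1.94 for Mex3b (adjusted p = 0.181) and 1.22 for Mex3d (adjusted p = 0.237), and Mex3c was at -0.22 (adjusted p = 0.731). Mature and immune markers were lower in MexHT OSN, as given above. Progenitor markers summed to 362 to 1227 TPM there and to 220 to 305 TPM in HT OSN, with 4 of 15 called higher. Immature OSN markers, 15 genes, summed to 5862 to 6698 TPM in MexHT OSN and to 4118 to 4210.5 TPM in HT OSN. Of these 15, 9 were called higher and 1 lower, against 19.9% and 16.8% of all genes. The part of these marker levels in the result was not tested.

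In the mCherry-negative cells, 0% of 16860 genes passed the adjusted p by limma, or by voom on the recovered reads, while 3465 had an unadjusted p under 0.05. Mex3a was 1.13 higher (log2) in MexHT mice (adjusted p = 0.219), Mex3b 0.76 (adjusted p = 0.235), Mex3d 0.48 (adjusted p = 0.261) and Mex3c -0.02 (adjusted p = 0.955). The order of the 4 values was that seen in the OSN. The 95% confidence intervals ran from 0.18 to 2.08 for Mex3a and from 0.04 to 1.48 for Mex3b, and differences of that size did not pass after adjustment. Progenitor markers summed to 896 to 2496 TPM in MexHT and 742 to 1701 TPM in HT negative cells, and their part was not tested.

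The comparison of OSN with the negative cells of the same mice asked how the levels differ between the sorted fractions. In MexHT mice the mCherry used for the sort is joined to Mex3a, so higher Mex3a in the OSN follows from the sort. In MexHT mice 63.4% of 16522 genes passed, 35.8% in the upward direction, and the median of all genes was 0.16 (0.03 with median-of-ratios scaling), so values are to be read against that shift. Mex3a was 2.08 higher in the OSN (adjusted p = 0.000531) and Mex3b 1.21 higher (adjusted p = 0.0134) by limma. Mex3d was 0.61 higher (adjusted p = 0.0630). With the mouse as a replicate block it was 0.53 (adjusted p = 0.0309), which passes. Mex3c was 0.31 higher (adjusted p = 0.0795). Within each mouse, the ratio of OSN to negative TPM ran from 2.28 to 6.21 for Mex3a, from 1.07 to 3.87 for Mex3b, from 0.857 to 2.22 for Mex3d and from 1.02 to 1.97 for Mex3c over the 5 mice. Mex3d was higher in the OSN of 4 of the 5 mice, mouse 3 being the exception.

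In HT mice, which carry no added Mex3a, 11.3% of 17027 genes passed between the fractions and no member did. Mex3a was -0.46 (adjusted p = 0.472), Mex3b -0.10 (adjusted p = 0.779), Mex3c 0.16 (adjusted p = 0.637) and Mex3d -0.14 (adjusted p = 0.540) by limma. The within-mouse ratio of Mex3a was 0.817, 0.549 and 0.827, below 1 in all 3 mice. The 95% confidence intervals ran from -1.50 to 0.57 for Mex3a, from -0.62 to 0.43 for Mex3b and from -0.50 to 0.22 for Mex3d. The intervals of MexHT and HT mice overlap for Mex3b and Mex3d, where those of MexHT mice start at 0.39 and 0.03. They do not overlap for Mex3a, where that of MexHT mice starts at 1.23. Setting intervals side by side does not test a difference between the constructs.

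The difference between these fraction effects was tested as an interaction over the 17 libraries, in which 12.4% of 16785 genes passed, 1184 up and 902 down (714 and 1053 with median-of-ratios scaling). Only the MexHT mice carry Mex3a in the transgene of the sorted OSN, so a larger value for Mex3a was set by the design. Mex3a passed at 2.55 ± 0.67 (log2, SE, adjusted p = 0.0204 by limma). It missed the threshold without HT OSN library 1 (2.26, adjusted p = 0.0606) and without HT negative library 2 (2.44, adjusted p = 0.0568). Mex3b was at 1.30 (adjusted p = 0.144), Mex3d at 0.75 (adjusted p = 0.239) and Mex3c at 0.15 (adjusted p = 0.774). Mex3b thus passed in MexHT mice and missed in HT mice without a called difference between them.

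In gg8 MexHT mice, 8.32% of 16490 genes passed between the immature OSN and the negative cells. Here too, higher Mex3a in the OSN follows from the sort. Mex3a was 2.56 higher in the OSN (adjusted p = 0.0571 by limma, 0.0399 with the mouse as a replicate block), Mex3b 1.87 (adjusted p = 0.0982), Mex3d 1.11 (adjusted p = 0.185) and Mex3c 0.48 (adjusted p = 0.398). Of all genes, 63.6% had 2 OSN values that do not overlap the 2 negative values, and 33.5% had them higher, as Mex3a, Mex3b and Mex3d did. The mice differed widely, with OSN to negative ratios of 2.18 and 16.1 for Mex3a, 1.52 and 9.0 for Mex3b, 1.12 and 4.2 for Mex3d and 1.06 and 1.83 for Mex3c. They also differed in Xist, at 0.441 and 0.144 TPM in the OSN and negative cells of mouse 1. In mouse 2 Xist was 159 and 21.4 TPM, and its part was not tested. Without the first OSN library, which leaves 1 OSN library assumed to vary like the negative ones, all 4 members passed, at 3.47 for Mex3a, 2.76 for Mex3b, 1.83 for Mex3d and 0.94 for Mex3c, but the genes called rose with them, from 1372 to 3703. Without either negative library or the second OSN library, limma called 0 genes (1793 to 5189 at an unadjusted p under 0.05) and so no member. Progenitor markers summed to 495 and 1448 TPM in these OSN libraries, in the same order as Mex3a, and their part was not tested.

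**Figure D3:**
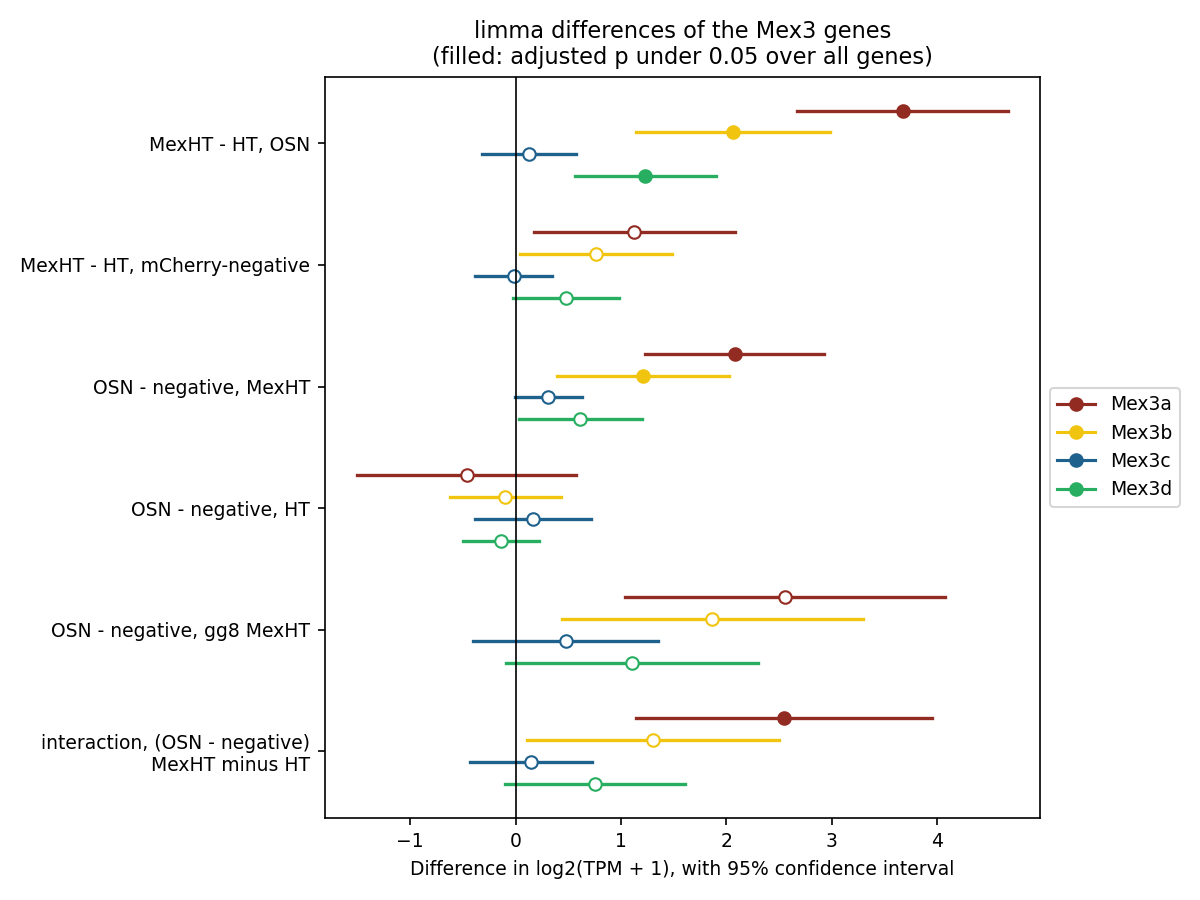
Differences in log2(TPM + 1) of the 4 Mex3 genes with 95% confidence intervals in 6 limma comparisons, filled where the adjusted p over all genes is under 0.05 (negative, mCherry-negative cells). Mex3a, Mex3b and Mex3d are filled for MexHT against HT OSN, Mex3a and Mex3b for OSN against negative cells in MexHT mice, and only Mex3a for the interaction.

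Mex3b and Mex3d were then set against the Mex3a level of the same library. Within the 6 MexHT OSN libraries Pearson's r of log2(TPM + 1) with Mex3a was 0.986 for Mex3b (exact permutation p = 0.0167, 0.025 adjusted over 3 relations), 0.977 for Mex3d (exact permutation p = 0.0139, adjusted 0.025) and 0.965 for Mex3c (exact permutation p = 0.0264, adjusted 0.0264). Spearman's rho was 0.771 for Mex3b, 0.714 for Mex3d and 0.6 for Mex3c, with exact permutation p of 0.103, 0.136 and 0.242, adjusted to 0.204, 0.204 and 0.242. Libraries 5 and 6 lie farthest from the median of Mex3a. Without them the other 4 span only 328 to 359 TPM of Mex3a, and r was 0.02 for Mex3b, 0.39 for Mex3d and -0.51 for Mex3c, so the relation within this group rests on those 2 libraries. On the linear scale, each 100 TPM of Mex3a went with 14.8 TPM of Mex3b, 8.72 TPM of Mex3d and 8.51 TPM of Mex3c. Mex3a was 679 TPM in library 6 and 1271 TPM in library 5, and Mex3b 96.6 and 188 TPM.

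As a slope in log2 units per log2 unit of Mex3a in this group, limma gave 0.99 ± 0.08 (SE) for Mex3b (adjusted p = 0.00124), 0.71 ± 0.08 for Mex3d (adjusted p = 0.00166) and 0.40 ± 0.06 for Mex3c (adjusted p = 0.00441). A called positive slope was found for 16.2% of 15560 genes and a called slope of either sign for 28%, 2519 positive and 1835 negative (2006 and 2384 with median-of-ratios scaling). Of all genes, 1.38% had a steeper positive slope than Mex3b and 14.3% one steeper than Mex3c. The Mex3c slope lost its call without library 5 (0.34, adjusted p = 0.105). Maturation markers moved along the same libraries. All 14 mature OSN markers had a called negative slope, with a median of -0.76, and 12 of the 15 progenitor markers a called positive one, with a median over the 15 of 1.17, against a median of 0.05 over all genes. Their part in these 3 slopes was not tested within this group.

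**Figure D4:**
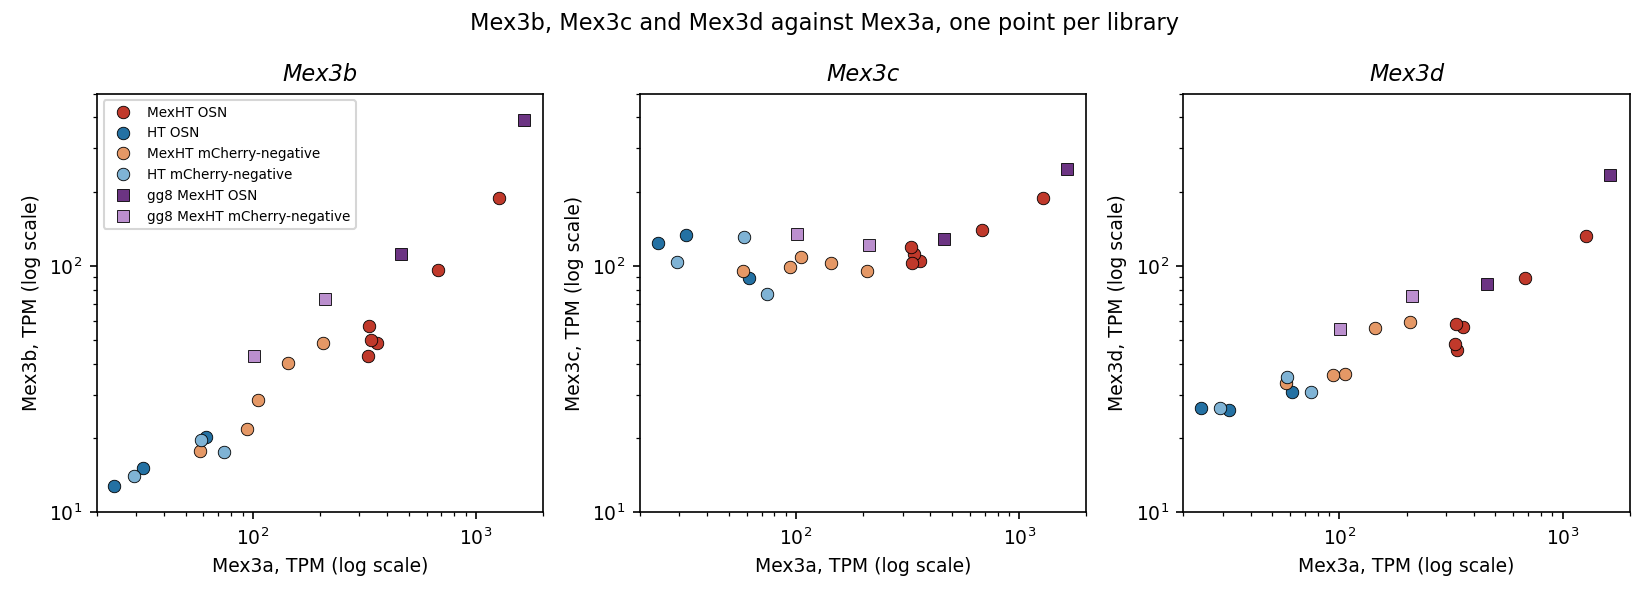
Mex3b, Mex3c and Mex3d against Mex3a in TPM, both axes logarithmic, 1 point per library, with circles for the table of both drivers and squares for the separately scaled gg8 table. In each table the library with the most Mex3a also has the most Mex3b and Mex3d, but HT negative library 3, with 74.3 TPM of Mex3a, has less of both than library 2, with 58.4 TPM, while Mex3c stays between 76.9 and 246 TPM.

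The same slope was taken over the 17 libraries of both drivers with the group means removed. This fit takes the libraries as independent, although each negative library shares its mouse with an OSN library. Mex3b had 0.78 ± 0.09 (adjusted p = 0.000182) and Mex3d 0.52 ± 0.08 (adjusted p = 0.000918), and Mex3c had 0.11 ± 0.10 (adjusted p = 0.436) by limma. Here 25.9% of 16784 genes had a called slope and 15.7% a positive one, 2642 positive and 1710 negative (2313 and 2272 with median-of-ratios scaling). Mex3b stood at place 12 of all genes by p. With the mouse as a replicate block, an alternative chosen after seeing the data, the slopes were 0.79 ± 0.09 for Mex3b (adjusted p = 0.000252) and 0.53 ± 0.08 for Mex3d (adjusted p = 0.00118), both still called. Without MexHT OSN libraries 5 and 6 the slopes of Mex3b and Mex3d were smaller and still called, at 0.60 ± 0.10 (adjusted p = 0.0134) and 0.36 ± 0.09 (adjusted p = 0.0410), and Mex3c turned to -0.14 (adjusted p = 0.360). The relation over all groups of this table thus did not rest on those libraries alone.

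With the difference of mature and immature OSN marker levels as a covariate, the slope was 0.69 ± 0.14 for Mex3b (adjusted p = 0.0656) and 0.42 ± 0.12 for Mex3d (adjusted p = 0.120), and 26 genes were called. With the progenitor marker level as a covariate it was 0.74 ± 0.19 for Mex3b (adjusted p = 0.984) and 0.50 ± 0.18 for Mex3d (adjusted p = 0.999). In that limma fit 0 genes were called, and 719 had an unadjusted p under 0.05. The calls were lost for both slopes as for nearly all or all other genes, and the SE for Mex3b rose from 0.09 to 0.14 and 0.19. In the fit without a score, all 14 mature OSN markers had a called negative slope on Mex3a. Of the 15 progenitor markers, 13 had a called positive one. The scores thus moved with Mex3a, and these fits cannot separate the marker levels from the Mex3a level.

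**Figure D5:**
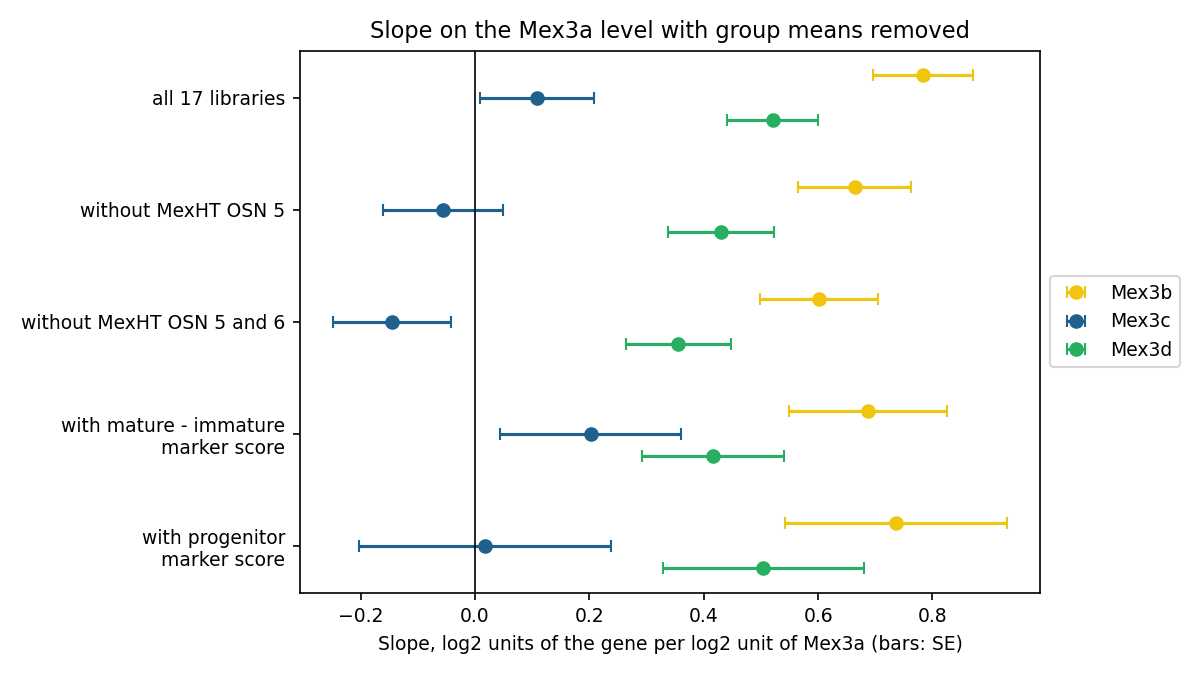
Slope of Mex3b, Mex3c and Mex3d on Mex3a (log2 units per log2 unit, bars are the SE) with group means removed, in the 17 libraries of both drivers, without 1 or 2 libraries, and with a marker score added to the fit. Mex3b lies between 0.60 and 0.78 and Mex3d between 0.36 and 0.52 in the 5 fits, while Mex3c lies on both sides of 0.

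The genes most like each member were ranked by Pearson's r of log2(TPM + 1) over the same 17 libraries, as a description, since these libraries share groups and composition. For Mex3b the nearest of 12366 named genes was Mex3d (r = 0.981), and Mex3a (0.972) was also among the nearest 5. For Mex3d the nearest was Mex3b, and the nearest 5 also held the kinase gene Pim3 (0.961), Trim62 (0.961) and Ddx41 (0.959). Mex3a was nearest to the kinase gene Fyn (0.982), Zfp189 (0.981), Sez6l2 (0.979) and Polr3d (0.978). Mex3c had other and less close neighbours, Scyl2 (0.909), Fam84b (0.907), Trib3 (0.903), Nfkbib (0.886) and Esco1 (0.858), and its r was 0.401 with Mex3a, 0.524 with Mex3b and 0.526 with Mex3d.

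With group means removed, Mex3d remained nearest to Mex3b (r = 0.964), ahead of Grasp (0.963) and Mtmr4 (0.947). Mex3a was then nearest to Nhlh2 (0.97), a transcription factor gene of immature neurons and one of the immature OSN markers used here, Edc3 (0.960), which encodes a decapping enhancer, and Mfng (0.959), a modifier of Notch. Mex3b was nearest to the helicase gene Dhx8 (0.969), Zfp358 (0.969) and Arhgef2 (0.966), with Mex3d at place 4 of 13337 genes. For Mex3a, Mex3b stood at place 28 and Mex3d at place 227. Mex3c was nearest to Tenm4 (0.930), Blzf1 (0.929) and Fam84b (0.928).

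Of 30 other KH-domain genes, 29 were tested between MexHT and HT OSN, with 8 higher and 1 lower, while 19.9% of all genes were higher and 16.8% lower. Their median was 0.03, as was that of all genes. The 4 with the lowest p were Pno1, a ribosome assembly factor (-1.05), Fxr2, a relative of the fragile X protein (0.53), Akap1, an anchor of kinases and RNA at mitochondria (1.03), and Pcbp3, a poly(C)-binding protein (0.50). Of 15 other genes encoding RNA-binding RING-finger or related ligase proteins, 14 were tested, 2 were higher and 2 lower, and the median was 0.12. These 4 were Trim56 (-2.09), Mkrn1 (0.54), Trim32 (0.84) and Rc3h2 (-0.41). Trim56 was 4.57 ± 0.719 TPM (SD, n = 6) in MexHT OSN and 22.7 ± 2.16 TPM (SD, n = 3) in HT OSN, and Trim56, like Ddx58 and Tlr3, is also expressed in immune cells, whose markers were lower in the same libraries. That part was not tested.

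Transcripts and proteins on which MEX3 proteins are known to act, or with which they work, gave 7 tested of 9 names. Of these, 3 were lower in MexHT OSN and 1 higher, while 16.8% of all genes were lower and 19.9% higher. The median of the list was -0.65, against 0.03 over all genes. The double-stranded RNA receptor gene Tlr3 fell by 1.66 (adjusted p = 0.00130), from 5.96 ± 1.15 TPM (SD, n = 3) to 1.23 ± 0.525 TPM (SD, n = 6). The RNA sensor gene Ddx58 fell by 1.19 (adjusted p = 0.00118), from 22.1 ± 2.48 TPM (SD, n = 3) to 9.24 ± 1.69 TPM (SD, n = 6), by limma as throughout. Ube2s, a ubiquitin-conjugating enzyme gene, rose by 0.42 (adjusted p = 0.0160). None of these 3 genes had a called slope on Mex3a within MexHT OSN, with slopes of -0.22, -0.02 and 0.02.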

How the data were processed

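RNA of sorted cells was made into libraries with a strand-keeping total RNA kit for small inputs (SMARTer Pico, Takara), per the labels' protocols. The deposited values are TPM per gene, made by the authors. FastQC, cutadapt, STAR and bedtools and the build mm10 are named in the submitters' processing notes, without versions or roles. Per table, 27 date-like or repeated names were left out (0.221% or less of any library). Whole reads were recovered from the TPM steps for 100% and 99.86% of genes, and their totals are the depths given. limma 3.58.1 (R 4.3.3, trend) was fitted on log2(TPM + 1) for all genes that averaged 1 TPM or more over the compared libraries, with Benjamini-Hochberg adjustment and a threshold of 0.05. The fits were tested on simulated data. Fold changes on this scale understate those of low genes. Correlations used Python 3.11.15 and SciPy 1.17.1 with exact permutation over 720 pairings. The labels tie equal numbers of OSN and negative libraries to 1 mouse. Deviations from the group means correlated between those partners at -0.11 to 0.42 in MexHT and at 0.17 to 0.47 in HT mice. Negative libraries of equal number in MexHT and HT mice, which are different mice, correlated at 0.34, 0.42 and 0.23, a pairing read from the data alone. Named beside the members are, per member, the 5 nearest genes by level and the 3 by deviation from group means (averaging 5 TPM or more, predicted genes and microRNAs passed over), the 4 genes of lowest p per list between MexHT and HT OSN, and Adar, Adarb1, Xist and Mir1905. Some genes that this rule names are not reported here. The members and lists were chosen with earlier results of these data known.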

Additional observations from a re-analysis of the deposited data

Results flagged for a closer look

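Mex3a reached 1271 TPM in MexHT OSN library 5. The gap to the next library, 679 TPM, was 0.628 of the range of the 6 libraries, above the limit of 0.625 for a group of this size. Mex3b reached 188 TPM in the same library, with a gap of 0.632 of the range. This check was made on 8 groups of values and picks out about 1 group in 20 by chance. The same library had the most progenitor marker RNA of its group, at 1227 TPM, and the least mature OSN marker RNA, at 2469 TPM. The part of these levels was not tested within the group.

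The difference of Mex3a between OSN and negative cells was 2.55 larger (log2) in MexHT than in HT mice, by the interaction test given above, where it stands with the 2 libraries on which its call depends. Its direction was set by the design, since Mex3a is part of the MexHT transgene.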

How the results depend on the processing

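Of the member values under alternatives, 448 kept their direction and side of the threshold, 20 lost and 10 gained a call, and 15 changed sign, all of Mex3c or Mex3b values that were not called. The cause of each change was not tested.

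With Xist as a covariate, MexHT against HT OSN gave 329 genes and 3.70 for Mex3a, 1.94 for Mex3b, 1.22 for Mex3d and -0.22 for Mex3c, and the slope within MexHT OSN 2787 genes. With the replicate block, Mex3c was -0.030 between the OSN and 0.012 between the negative cells, Mex3d 0.53 and Mex3a (gg8) 2.56 between fractions, and 4967 genes were called in HT mice and 3398 in the interaction. The block changed no other call of a member. The numbers pair no OSN libraries across constructs (deviations at 0.11, 0.13 and -0.23). Between the negative libraries 0 genes were called by limma with or without the block (3311 and 3465 at an unadjusted p under 0.05). With voom, HT mice gave 1038 genes and Mex3c 0.0099 between the negative cells, where it was 0.010 with median-of-ratios scaling. With all 4 groups in 1 fit, Mex3d between the fractions of MexHT mice was 0.61 and called, and the negative cells gave 24 genes. They gave 1 without the filter, and the gg8 fractions 646 with a pseudocount of 0.1.

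Chosen after seeing the data, the wider slope fit gave 26 genes, 0.69 for Mex3b and 0.42 for Mex3d with the maturation score, and 0 genes, 0.74 and 0.50 with the progenitor score. Without MexHT OSN libraries 5 and 6 it gave 1243 genes and -0.14 for Mex3c, and Mex3c between the OSN was -0.060.

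Leaving out 1 library at a time gave 3745 (without HT OSN 1; 3886 without HT OSN 2) to 6506 genes between the OSN, with Mex3c from -0.044 to 0.24. It gave 0 to 4 genes between the negative cells, with Mex3c from -0.22 to 0.16. Mex3d between the fractions of MexHT mice ran from 0.42 to 0.73. HT mice gave 660 to 4183 genes, lowest without negative library 1 and highest without negative library 2, with 797 and 811 without OSN libraries 1 and 2 and 1183 without negative library 3. Mex3b ran from -0.27 to 0.042 and Mex3c from -0.034 to 0.34 there. The gg8 fractions gave 0 genes without either negative library or OSN library 2 (1793 to 5189 at an unadjusted p under 0.05 by limma) and 3703 without OSN library 1. Mex3a ran from 1.65 to 3.47, Mex3b from 0.98 to 2.76, Mex3c from 0.010 to 0.94 and Mex3d from 0.38 to 1.83. The interaction gave 1195 (without HT negative library 2) to 2483 genes, with Mex3a from 2.26 to 2.93 and Mex3c from -0.031 to 0.35. The slope within MexHT OSN gave 1856 (without library 5; 2853 without library 3) to 4594 genes, with Mex3c from 0.34 to 0.43. The wider slope gave 1701 (without MexHT OSN 5) to 5263 genes, with Mex3c from -0.056 to 0.19. The correlations ran from 0.943 to 0.998 for Mex3b, 0.858 to 0.991 for Mex3c and 0.932 to 0.989 for Mex3d, and missed the threshold without library 3, 5 or 6, and for Mex3c also without 4, where 5 libraries allow few pairings. Mex3b, the least counted member, had 143 recovered reads or more in every library.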

Other observations

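Mir1905, the microRNA gene annotated on the strand opposite to Mex3a within its coding exon 2, had 3378 and 1294 recovered reads in MexHT OSN libraries 5 and 6 and 912 or fewer in the other 4, where Mex3a had 4795 to 30268 over the 6. In gg8 MexHT OSN it had 13 and 46 reads at 9419 and 45959 reads of Mex3a. Its level in TPM differed between MexHT and HT OSN by 4.99 (log2, adjusted p = 0.000106 by limma), more than that of Mex3a. The files do not say how reads of overlapping genes or of each strand were assigned in either table, and the cause of the difference between the tables was not tested.

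Adar, which encodes the mouse RNA-editing enzyme, was 377 to 1198 TPM in MexHT OSN, 1033 to 1155 TPM in HT OSN, 52.4 to 90.5 TPM in MexHT negative cells and 51.0 to 57.2 TPM in HT negative cells. It was 498 and 1418 TPM in gg8 MexHT OSN and 42.0 and 50.5 TPM in their negative cells. Only library 5 of MexHT OSN, at 1198 TPM of Adar, was not below the HT OSN libraries, with library 6 next at 742 TPM. Adarb1, its relative, was 12.4 to 24.4 TPM in MexHT OSN and 24.5 to 28.3 TPM in HT OSN. From HT to MexHT OSN, Adar differed by -1.03 (log2, adjusted p = 0.0399) and Adarb1 by -0.69 (adjusted p = 0.0230) by limma. Of all genes, 16.8% were called lower in that comparison. Within MexHT OSN the slope of Adar on Mex3a was 0.85 (adjusted p = 0.00103 by limma) and that of Adarb1 -0.21 (adjusted p = 0.333). The files do not separate reads of an editing domain in the transgene from those of the endogenous gene.

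Mex3b per 100 TPM of Mex3a was 13.1 to 17.2 TPM in MexHT OSN, 32.9 to 53.6 TPM in HT OSN, 23.3 to 30.7 TPM in MexHT negative cells and 23.6 to 47.8 TPM in HT negative cells. The transgene adds to the denominator of this ratio in MexHT OSN. In gg8 MexHT OSN it was 23.8 and 24.3 TPM, almost the same in libraries whose Mex3a levels were 460 and 1632 TPM.

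Over the 17 libraries, 5 of the 29 tested KH-domain genes had a called positive slope on Mex3a with group means removed, near the 15.7% of all genes. In that fit 1 had a called negative slope, while 25.9% of all genes had a called slope of either sign. Within MexHT OSN alone, 4 of the 29 had a called positive slope and 5 a called negative one. Of all 15560 genes in that fit, 16.2% had a called positive slope, 1835 a called negative one, and 28% one of either sign.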
